A study of Mus musculus with 8 samples.

Results

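The heat shock chaperones described here are 10 genes chosen by name: the HSP70 genes Hspa1a, Hspa1b and Hspa8, the HSP110-type genes Hspa4 and Hsph1, the HSP90 genes Hsp90aa1 and Hsp90ab1, the J-domain gene Dnajb1, the small heat shock gene Hspb1 and the transcription factor gene Hsf1. They are 10 of the 19558 genes listed, and all 10 were among the 15481 genes that passed the filter on low counts. Their 62 listed transcripts were summed per gene. Levels are given as CPM, counts scaled to library size, unless stated otherwise. The libraries were made from poly(A) RNA of hippocampus of wild-type C57BL/6 KP mice at postnatal day 40. The mice had been anesthetized and given either KU55933, a blocker of the ATM kinase, at a stated dose of 7.5 mg/kg, or the vehicle, 4% DMSO in saline, in small drops into alternating nostrils. Each of the 2 groups held 4 libraries, so that DMSO and anesthesia were common to all 8. ATM signals DNA double-strand breaks, and a kinase blocker does not remove the Atm gene or its mRNA. How long after dosing the tissue was taken is not given in the sources used here, and the library text names input amounts for hypothalamus and PFC although every sample is labelled hippocampus.

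Heat shock chaperones bind unfolded or partly folded proteins and help them fold, hold them in solution or pass them on for degradation. HSP70 proteins do this in cycles of ATP binding and hydrolysis, which J-domain proteins such as DNAJB1 start and HSP110-type exchange factors reset, and HSP90 proteins finish the folding of many kinases and receptors. When unfolded proteins accumulate, HSF1 is released, forms trimers and binds heat shock elements, which are inverted repeats of the unit nGAAn in promoters of inducible genes such as Hspa1a, Hspa1b, Dnajb1, Hsph1 and Hspb1. Neurons hold large amounts of the constitutive forms HSC70 (Hspa8) and HSP90 beta (Hsp90ab1) and are known for a weak induction of the inducible HSP70.

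In KU55933 the 2 inducible HSP70 genes were lower and 4 of the more abundant genes were slightly higher. Hspa1a fell 2.25-fold and Hspa1b 2.16-fold, while Hspa8, Hsp90aa1, Hsph1 and Hspa4 rose by 1.22-fold to 1.28-fold. Hsp90ab1, Dnajb1, Hspb1 and Hsf1 did not pass the test. The test was edgeR's quasi-likelihood F test with Benjamini-Hochberg adjustment over all genes tested and a threshold of 0.05. Over all genes, 14.6% were called lower and 6.92% higher, against 2 and 4 of the 10 chaperone genes. The median log2 change of the 10 genes was 0.20, beside 0.01 over all genes tested. When a curve of counts on GC content and length was fitted in each library and used as an offset, 0 of the 10 genes passed edgeR's test. Of all genes 1.96% then passed, 1.29% lower and 0.672% higher. Of the 10 genes, 5 then had an unadjusted p under 0.05, beside 15.9% of all genes. Hspa1a and Hspa1b had negative changes and Hspa8, Hsph1 and Hspb1 positive ones, that of Hspb1 being negative without the offset.

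**Figure D1:**
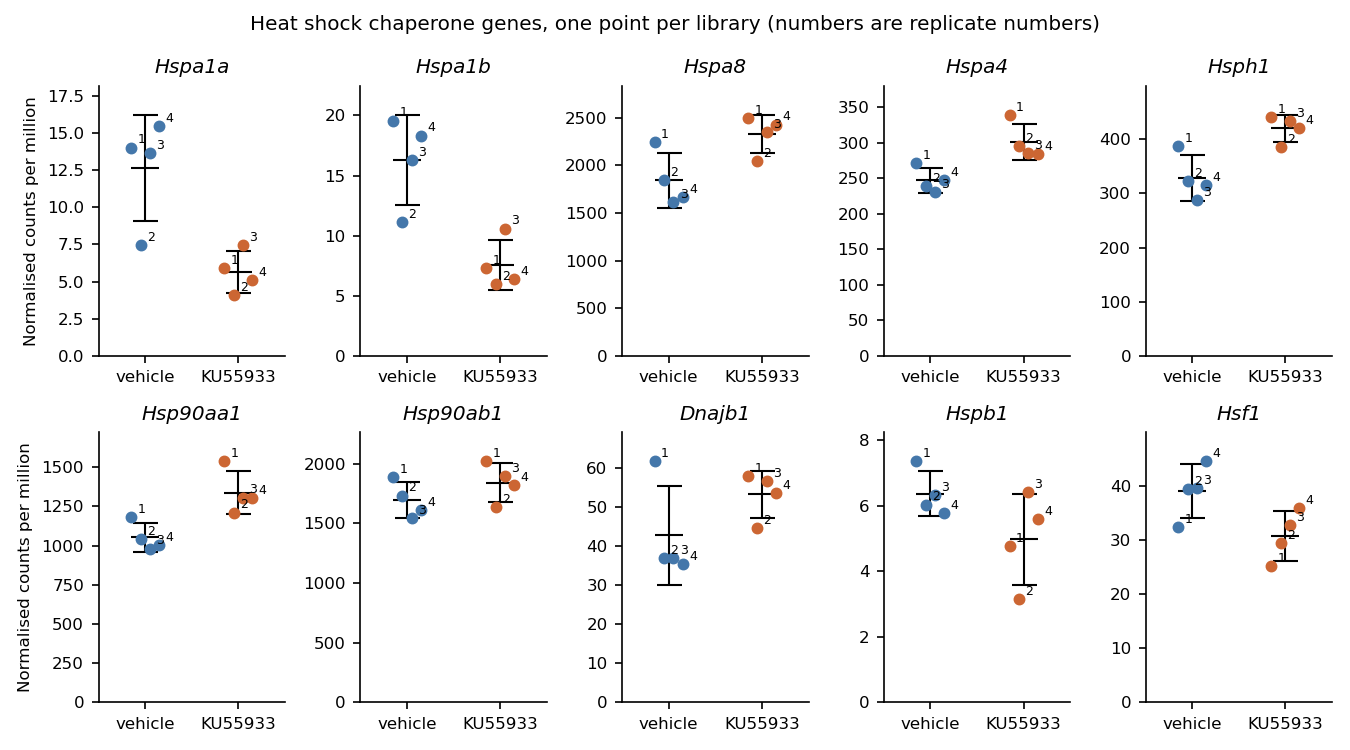
Normalised CPM (vertical axes, starting at 0) of the 10 heat shock chaperone genes in each vehicle and KU55933 library. Points are libraries with their replicate numbers, and the black marks are the mean and SD of 4 libraries. Hspa1b lies lower, and Hsp90aa1 and Hspa4 lie higher, in all KU55933 libraries than in any vehicle library. Of all genes tested, 15.9% lie lower and 10.7% higher in this way.

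Vehicle libraries held 40586998 to 46630341 estimated counts and KU55933 libraries 34190440 to 37499003, a ratio of means of 1.19. The 5 hippocampal neuron markers were all found, with summed levels of 796 to 1042 CPM in vehicle and 699 to 991 in KU55933. The 5 choroid plexus markers, led by Ttr, summed to 1113 in KU55933 1 and 1275 in KU55933 2, to 73.9 and 57.6 in KU55933 3 and 4, and to 49.9 to 107.5 in vehicle. None of those 5 markers was at 0 in any library. Summed levels overlapped between groups for the lists of neurons, astrocytes, oligodendrocytes, microglia, endothelial cells and mural cells. By edgeR, 2 of 5 neuron markers and 1 of 5 for each of astrocytes, microglia, endothelial cells and mural cells were lower in KU55933, and of the 5 hippocampal neuron markers 2 were lower and 1 was higher. The thalamic and subcortical neuron markers, with 2 of 4 tested called higher, summed to 55.9 to 69.4 CPM in vehicle and 56.1 to 97.3 in KU55933, and of these Gbx2 was at 0 in at least 1 library. Over all genes tested, 14.6% were called lower and 6.92% higher. With the GC and length offset, Rbfox3, a neuron marker, was the only marker called (log2 change -0.41, adjusted p = 0.0127 by edgeR). The other markers called without the offset then missed the threshold. The neuron markers did not all fall. Without the offset Tubb3 was at a log2 change of -0.45, while Snap25, Syt1 and Stmn2, not called, were at 0.06, 0.15 and 0.26. With the offset Tubb3, Snap25, Syt1 and Stmn2 were at -0.0045, -0.11, -0.016 and 0.12. The part of the marker lists in the results was not tested. Leaving out KU55933 1 and 2 cannot decide it, because the group then also holds fewer libraries. These 2 libraries also had the lowest fitted offsets for Hspa1a, -0.391 and -0.430 on the log2 scale, against -0.171 and -0.144 in KU55933 3 and 4. In these bulk samples, fewer cells of a type and less RNA per cell cannot be told apart. The labels give the number per group but not the mouse behind each library, so p-values measure the spread between these libraries, which may be technical.

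The inducible HSP70 genes Hspa1a and Hspa1b are neighbouring single-exon copies whose proteins are made in quantity after heat or protein damage. The 250 bases before the start of each gene are shown because both genes fell together and both windows hold a pair of heat shock element units, here in capitals. The sequences are from RefSeq on GRCm38.p6, minus strand, at chr17:34972157-34972406 for Hspa1a and chr17:34959239-34959488 for Hspa1b, written 5′ to 3′ up to the base before the start.
Hspa1a: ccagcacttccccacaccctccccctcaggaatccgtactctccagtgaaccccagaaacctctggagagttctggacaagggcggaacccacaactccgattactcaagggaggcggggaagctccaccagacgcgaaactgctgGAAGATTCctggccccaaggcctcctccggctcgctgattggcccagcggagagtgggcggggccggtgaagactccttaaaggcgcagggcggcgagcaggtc
Hspa1b: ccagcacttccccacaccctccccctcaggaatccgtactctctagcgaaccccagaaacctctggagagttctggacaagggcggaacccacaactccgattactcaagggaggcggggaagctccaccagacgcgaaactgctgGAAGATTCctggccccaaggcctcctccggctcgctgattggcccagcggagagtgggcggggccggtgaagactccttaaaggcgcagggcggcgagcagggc
Both hold GAAGATTC with its first base at -104. The 2 windows were 98.8% identical and differed by C44T, T47C and T249G, with positions counted from 1 at the 5′ end of the window and the Hspa1a base first. None of the 3 lies in the capitals.

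Hspa1a was at 14.0, 7.44, 13.7 and 15.5 CPM in vehicle 1 to 4 and at 5.91, 4.09, 7.45 and 5.08 in KU55933 1 to 4. The KU55933 libraries lay below 3 of the 4 vehicle libraries, and vehicle 2 fell just below KU55933 3, so the groups overlapped. The means were 12.7 ± 3.56 and 5.63 ± 1.42 CPM (SD, n = 4 per group). The log2 change was -1.17 ± 0.24 (SE, adjusted p = 0.00945 by edgeR). Hspa1b was at 19.6, 11.1, 16.3 and 18.3 CPM in vehicle 1 to 4 and at 7.29, 5.95, 10.6 and 6.37 in KU55933 1 to 4. Here all KU55933 libraries lay below all vehicle libraries, as in 15.9% of all genes tested, and vehicle 2 was again the lowest of its group. The means were 16.3 ± 3.73 and 7.55 ± 2.10 CPM (SD, n = 4 per group), and the log2 change was -1.11 ± 0.22 (SE, adjusted p = 0.00657 by edgeR). The coding sequences of the 2 genes, of 1923 and 1926 bases, differ at 8 aligned bases and a gap of 3 bases. How the reads were divided between them is thus uncertain. Summed as 1 gene they had a log2 change of -1.14 (adjusted p = 0.00882 by edgeR), and their ratio within a library, 0.670 to 0.846 in vehicle and 0.687 to 0.811 in KU55933, overlapped between groups.

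Both genes passed the test with each single library left out, with adjusted p up to 0.0325 for Hspa1a and 0.0266 for Hspa1b by edgeR. With KU55933 1 and 2, the libraries high in choroid plexus markers, both left out, the log2 changes were -1.01 and -0.93 and the adjusted p by edgeR 0.101 and 0.0953. In that fit 985 of 15780 genes were called lower and 105 higher. The GC content of Hspa1a transcripts was 59.0% and that of Hspa1b 58.1%. Across all genes, changes fell with GC content, and the 966 genes within 1 percentage point of Hspa1a had a median log2 change of -0.57, with quartiles of -0.75 and -0.41. For the 1199 genes around Hspa1b the median was -0.48. With the offset, the log2 changes were -0.60 ± 0.23 for Hspa1a and -0.64 ± 0.21 for Hspa1b (SE), with adjusted p of 0.231 and 0.182 by edgeR. Both kept their direction. With an offset fitted per transcript instead, the changes were smaller. They were -0.34 ± 0.26 for Hspa1a and -0.41 ± 0.24 for Hspa1b (SE), with adjusted p of 0.631 and 0.516 by edgeR. Before the offset, each gene's change lay below the lower quartile of the genes of like GC content, which was -0.64 for Hspa1b.

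**Figure D2:**
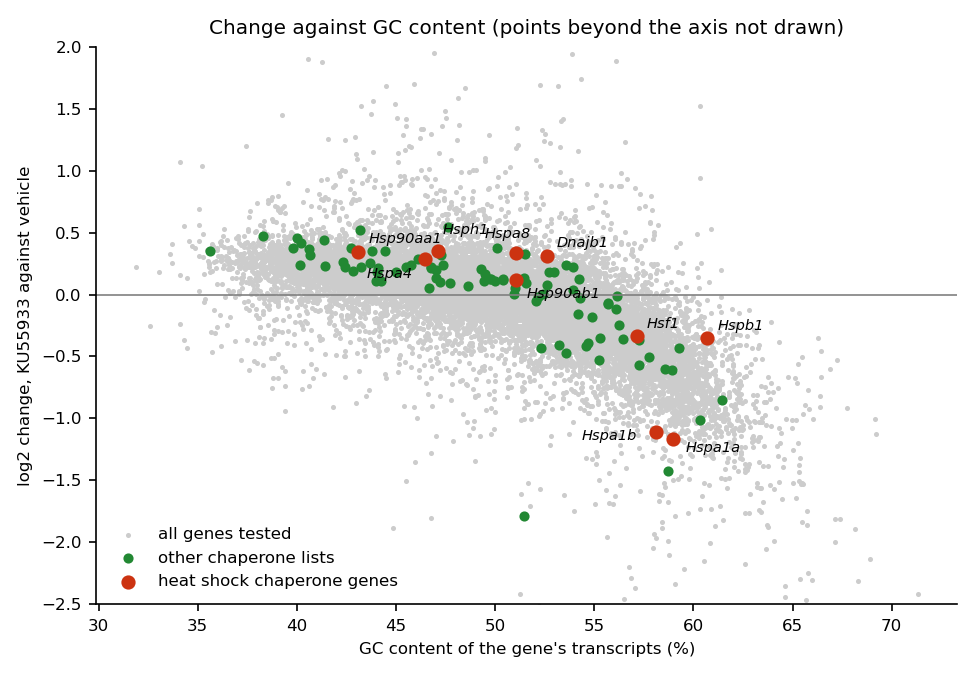
Log2 change in KU55933 against vehicle (vertical axis) by the GC content of each gene's transcripts in percent (horizontal axis), for all genes tested, for the other chaperone lists and for the 10 heat shock chaperone genes. The grey cloud falls toward high GC content. Hspa1a and Hspa1b, at 59.0% and 58.1% GC, lie in its lower part and Hspb1, at 60.7%, in its upper part.

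Hspa8 encodes HSC70, the constitutive HSP70, which also strips clathrin from endocytosed vesicles at synapses. It was at 2247, 1849.8, 1611 and 1671 CPM in vehicle 1 to 4 and at 2499.9, 2049, 2351 and 2429 in KU55933 1 to 4. All KU55933 libraries but KU55933 2 exceeded every vehicle library, and vehicle 1 stood above KU55933 2, so the groups overlapped. The means were 1845 ± 287 and 2332 ± 198 (SD, n = 4 per group), and the log2 change was 0.34 ± 0.11 (SE, adjusted p = 0.0494 by edgeR). Hspa8 was the chaperone gene nearest to the threshold. At 51.0% GC, where the median log2 change of 1595 genes was 0.02, the offset left its change at 0.33 ± 0.12 but its adjusted p by edgeR at 0.214.

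Hsp90aa1 encodes HSP90 alpha, the inducible cytosolic HSP90. Its levels were 1182, 1042, 981 and 1000.3 CPM in vehicle 1 to 4 and 1536, 1209.6, 1305 and 1299.7 in KU55933 1 to 4. All KU55933 libraries lay above all vehicle libraries, as in 10.7% of all genes tested, with KU55933 1 the highest. From 1052 ± 91.1 to 1338 ± 139 (SD, n = 4 per group), the log2 change was 0.35 ± 0.09 (SE, adjusted p = 0.0238 by edgeR). Hsp90aa1 had the lowest GC content of the 10 genes, 43.1%, and the median log2 change of the 1182 genes near it was 0.20. With the offset its change was 0.16 ± 0.09 (SE, adjusted p = 0.426 by edgeR). Hsp90ab1 encodes HSP90 beta, the constitutive form, and its levels ran from 1546 to 1887 in vehicle and from 1634 to 2019 in KU55933. The groups overlapped, and the log2 change was 0.12 ± 0.09 (SE, adjusted p = 0.345 by edgeR).

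Hsph1 encodes HSP105, an HSP110-type exchange factor for HSP70 that is itself heat-induced. It was at 387, 322, 288 and 316 CPM in vehicle 1 to 4 and at 441, 386, 433 and 420.5 in KU55933 1 to 4. The groups overlapped only where vehicle 1 slightly exceeded KU55933 2. Its means of 328 ± 41.9 and 420.1 ± 24.6 (SD, n = 4 per group) gave a log2 change of 0.36 ± 0.09 (SE, adjusted p = 0.0235 by edgeR), and of 0.23 ± 0.10 with the offset (adjusted p = 0.267). Hspa4, its constitutive relative APG-2, was at 271, 239, 231 and 248 CPM in vehicle 1 to 4 and at 339, 295, 286 and 284 in KU55933 1 to 4. All KU55933 libraries of Hspa4 lay above all vehicle libraries, as in 10.7% of all genes tested, and KU55933 1 stood highest. The means were 247 ± 17.6 and 301 ± 25.8 (SD, n = 4 per group), and the log2 change was 0.28 ± 0.08 (SE, adjusted p = 0.0328 by edgeR) or 0.13 ± 0.07 with the offset (adjusted p = 0.381). A window before an Hsph1 start (RefSeq, GRCm38.p6, chr5:149636337-149636586, minus strand) is shown because this gene, unlike Hspa1a and Hspa1b, rose. This window too holds a pair of heat shock element units, TTCTCGAA, with its first base at -33.
Hsph1: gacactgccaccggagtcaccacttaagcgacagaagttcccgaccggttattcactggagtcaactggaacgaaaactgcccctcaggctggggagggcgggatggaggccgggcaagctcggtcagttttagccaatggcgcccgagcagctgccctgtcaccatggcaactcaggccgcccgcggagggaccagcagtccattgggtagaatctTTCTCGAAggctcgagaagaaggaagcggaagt
The calls of Hspa8, Hsp90aa1, Hsph1 and Hspa4 did not hold with every library left out, while their log2 changes ran from 0.22 (Hspa4) to 0.45 (Hspa8 and Hsph1). Without vehicle 2, vehicle 3 or vehicle 4, none of the 4 passed, with log2 changes of 0.25 to 0.35 and adjusted p of 0.0653 to 0.143 by edgeR. In the same fits the number of all genes called higher went from 1071 to between 151 and 188. Without KU55933 1, only Hsp90aa1 of the 4 passed (adjusted p = 0.0446 by edgeR), with 0.105 for Hspa8, 0.0510 for Hsph1 and 0.0594 for Hspa4. Hspa8 also missed the threshold without KU55933 3 (adjusted p = 0.0936) or 4 (0.0774), Hsph1 without KU55933 3 (0.0559) and Hspa4 without KU55933 2 (0.0603).

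**Figure D3:**
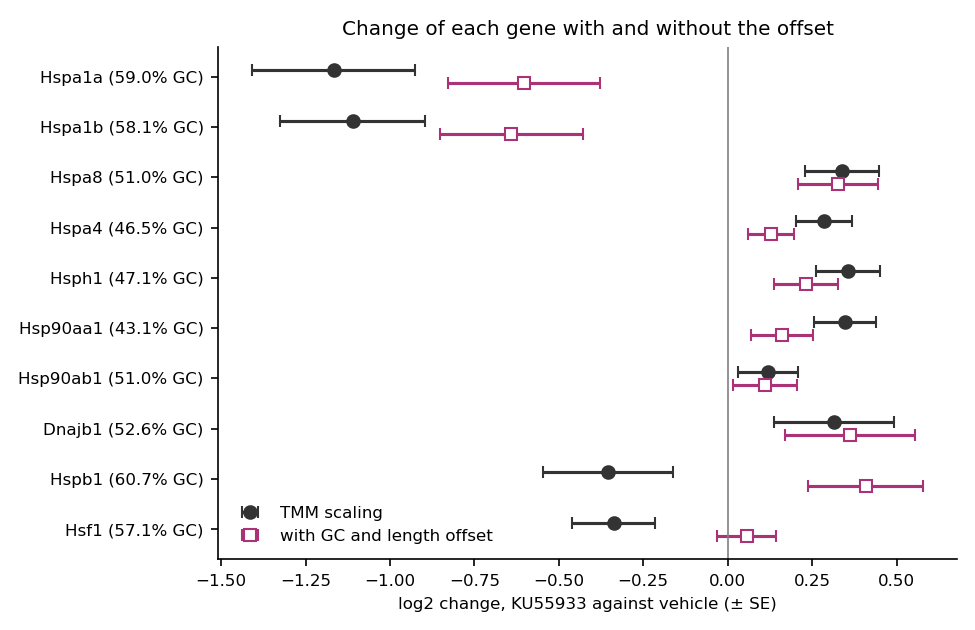
Log2 change in KU55933 against vehicle (horizontal axis) of the 10 heat shock chaperone genes, listed with their GC content, by TMM scaling (filled circles) and with the GC and length offset (open squares). Bars are standard errors. With the offset Hspa1a and Hspa1b move to -0.60 and -0.64, and Hspb1 and Hsf1 cross 0 to 0.41 and 0.06.

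Dnajb1 encodes HSP40, the J-domain partner that delivers clients to HSP70 and starts its ATP hydrolysis. It was at 61.8, 36.9, 37.0 and 35.5 CPM in vehicle 1 to 4 and at 58.1, 44.8, 56.8 and 53.6 in KU55933 1 to 4. Vehicle 1 was higher than every other library, and the 3 other vehicle libraries lay below all KU55933 libraries. The log2 change was 0.32 ± 0.18 (SE, adjusted p = 0.223 by edgeR) over all libraries. Without vehicle 1 it was 0.55 with an adjusted p by edgeR of 0.00374. Vehicle 1 also had the largest summed level of the 5 oligodendrocyte markers, 6551 CPM against 2995 to 4805 in the other 7 libraries, and the part of that in the Dnajb1 level was not tested.

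The 2 annotated Dnajb1 transcripts did not move together. The main transcript, ENSMUST00000005620, was at 2693, 1233, 1453 and 1306 estimated counts in vehicle 1 to 4 and at 1279, 1151, 1412 and 1196 in KU55933 1 to 4. Vehicle 1 was high, the groups overlapped, and the transcript did not pass the test (log2 change -0.19 ± 0.22, SE, adjusted p = 0.716 by edgeR over 45343 transcripts). The second transcript, ENSMUST00000212300, was at 123, 261, 70 and 127 estimated counts in vehicle 1 to 4 and at 706, 438, 721 and 705 in KU55933 1 to 4. All KU55933 libraries lay above all vehicle libraries, and vehicle 2 and KU55933 2 were nearest to each other. The share of all transcripts with such a separation was not counted. It rose from 3.48 ± 2.05 to 18.1 ± 3.53 CPM (SD, n = 4 per group), a log2 change of 2.33 ± 0.41 (SE, adjusted p = 0.0138 by edgeR). With an offset fitted per transcript the log2 change was 2.51 ± 0.43 (SE, adjusted p = 0.0265 by edgeR). Its share of the gene's counts was 4.37%, 17.5%, 4.60% and 8.86% in vehicle 1 to 4 and 35.6%, 27.6%, 33.8% and 37.1% in KU55933 1 to 4. Without vehicle 4 the adjusted p by edgeR was 0.0509, with a log2 change of 2.26. The call was also lost when replicate number was put into the edgeR fit as a block. That fit called 328 of all transcripts higher, against 480 without the block. In the GENCODE annotation on GRCm38, the second transcript starts 360 bases downstream of the first, 10 bases past the end of the first exon of the main form. It has a first exon of 208 bases (71.2% GC) in place of one of 350 bases (68.0% GC), and the 2 share their remaining 2646 bases. Its start codon lies 100 codons into the main reading frame, giving 240 codons in place of 340, and the J domain is at the N-terminal end of the full-length protein. Only reads in the first exons tell the 2 transcripts apart, so the division of counts between them is an estimate. The estimate carries an error that the deposited counts do not show.

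**Figure D4:**
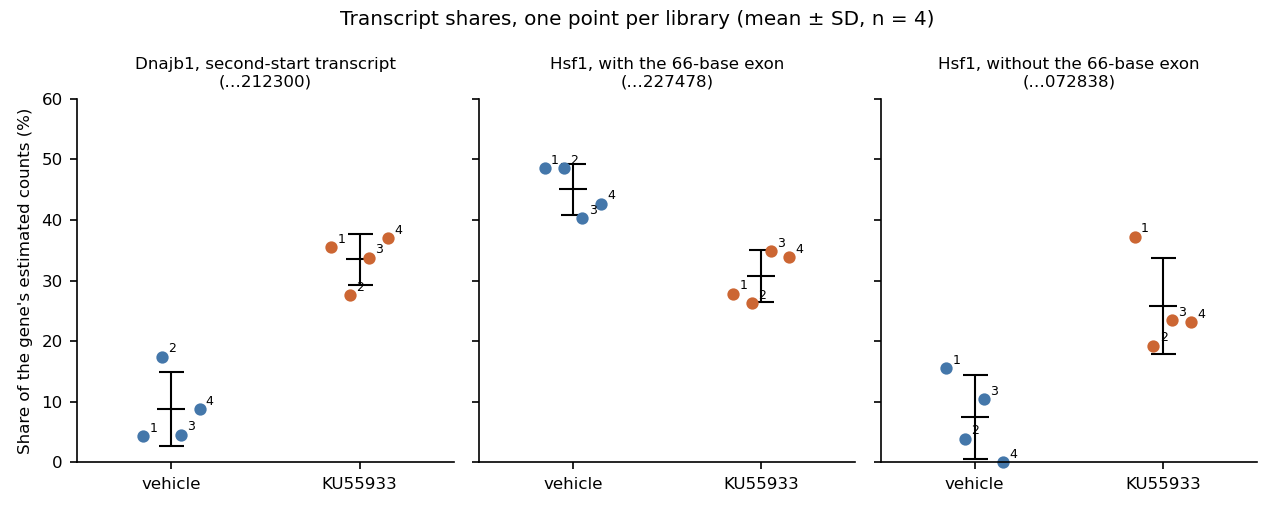
Share of the gene's estimated counts (vertical axes, percent) held by the second-start transcript of Dnajb1 and by the Hsf1 transcripts with and without the 66-base exon, in each vehicle and KU55933 library. Points are libraries with their replicate numbers, and the black marks are the mean and SD of 4 libraries. In none of the 3 do the groups overlap, and the Hsf1 transcript without the exon is at 0 in vehicle 4. How often the groups separate over all transcripts was not counted.

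Hspb1 encodes HSP27 (HSP25 in mice), a small chaperone that holds unfolded proteins without using ATP and is best known from glia and stressed neurons. It was at 7.35, 6.03, 6.32 and 5.78 CPM in vehicle 1 to 4 and at 4.77, 3.16, 6.41 and 5.58 in KU55933 1 to 4. KU55933 1, 2 and 4 lay below all vehicle libraries and KU55933 3 lay within them, so the groups overlapped. The log2 change was -0.35 ± 0.19 (SE, adjusted p = 0.203 by edgeR). Hspb1 was the most GC-rich of the 10 genes, 60.7%, and the 437 genes of like GC content had a median log2 change of -0.76. With the offset its sign turned, to 0.41 ± 0.17 (SE, adjusted p = 0.279 by edgeR). Its promoter window (RefSeq, GRCm38.p6, chr5:135887669-135887918, plus strand) is shown because it holds 2 pairs of heat shock element units, GAAGTTTC from -117 and GAACCTTC from -97, in a gene that did not pass.
Hspb1: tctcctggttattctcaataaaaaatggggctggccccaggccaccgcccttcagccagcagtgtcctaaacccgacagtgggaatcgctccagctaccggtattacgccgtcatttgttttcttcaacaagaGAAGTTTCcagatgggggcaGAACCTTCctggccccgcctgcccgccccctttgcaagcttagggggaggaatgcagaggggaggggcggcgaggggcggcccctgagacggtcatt
The RefSeq table held 8 windows, for 6 of the 10 genes. The motifs searched were GAANNTTC and TTCNNGAA, each of which reads the same on both strands, and 4 of those 6 genes had at least 1. Hspa4 and Dnajb1 had none in their windows. In the Hsph1 window not printed, chr5:149636316-149636565, TTCTCGAA has its first base at -54. Of all 32851 windows of that length, 12.8% held either motif, which is a share of windows and not of genes. A match says only that the letters are present.

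Hsf1, the gene of the transcription factor itself, was at 32.5, 39.5, 39.6 and 44.6 CPM in vehicle 1 to 4 and at 25.2, 29.5, 32.9 and 36.0 in KU55933 1 to 4. Vehicle 1 was the lowest of its group and lay below KU55933 3 and 4. The means were 39.1 ± 5.0 and 30.9 ± 4.63 (SD, n = 4 per group) and the log2 change was -0.34 ± 0.12 (SE, adjusted p = 0.0721 by edgeR). The gene passed without vehicle 1 (adjusted p = 0.0258, log2 change -0.41) or KU55933 4 (0.0380, -0.42), and in DESeq2 with all libraries (0.0487). With the offset the log2 change was 0.06 ± 0.09 (SE, adjusted p = 0.790 by edgeR), and the 1414 genes near its GC content of 57.1% had a median of -0.38. The HSF1 protein is controlled mainly by release from chaperones, trimer formation and phosphorylation, none of which these mRNA levels measure.

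Among the 16 listed Hsf1 transcripts, the most abundant one, ENSMUST00000227478, went down from 17.4 ± 1.90 to 9.69 ± 2.70 CPM (SD, n = 4 per group), a log2 change of -0.90 ± 0.20 (SE, adjusted p = 0.0305 by edgeR). Its estimated counts were 720, 777, 658 and 769 in vehicle 1 to 4 and 240, 275, 431 and 433 in KU55933 1 to 4. The groups did not overlap, and KU55933 1 and 2 were the lowest. The transcript ENSMUST00000072838 is the same but for a missing exon of 66 bases, or 22 codons, and was at 231, 63, 171 and 0 counts in vehicle and at 321, 202, 290 and 296 in KU55933. Scaled to library size, it was at 0 to 4.95 CPM in vehicle and at 5.91 to 9.09 in KU55933, so that the groups did not overlap. For neither form is there a share of all transcripts without overlap to set beside this. The form without the exon did not pass (log2 change 1.48 ± 1.01, SE, adjusted p = 0.484 by edgeR). As shares of the gene's counts, the form with the exon held 40.4% to 48.6% in vehicle and 26.3% to 34.9% in KU55933, and the form without it held 0% to 15.6% and 19.3% to 37.3%. The exon that separates the 2 forms is printed whole, from the reference sequence of GRCm38 at chr15:76500131-76500196, plus strand.
Hsf1 exon: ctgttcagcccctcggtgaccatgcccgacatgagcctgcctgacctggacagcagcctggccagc
The call for the form with the exon was lost without vehicle 1, 2, 3 or 4 or KU55933 1 or 2, with adjusted p of 0.0502 to 0.0906 by edgeR and log2 changes of -0.94 to -0.73. With the offset per transcript its log2 change was -0.27 ± 0.14 (SE, adjusted p = 0.472 by edgeR).

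Of the 62 listed transcripts of the 10 genes, 48 were tested, and 3 were called lower and 1 higher by edgeR, where 5.7% of all transcripts were called lower and 1.06% higher. The other 2 lower ones are the single transcripts of Hspa1a and Hspa1b, with adjusted p of 0.0354 and 0.0288. Both were lost without any one of vehicle 1, 3 or 4 or KU55933 1, 2 or 4, where adjusted p by edgeR ran from 0.0620 to 0.138 and log2 changes from -1.19 to -0.95. With the offset per transcript 0 were called lower and 1 higher, where 1.01% and 1.05% of all transcripts were called. The rises of Hspa8, Hsp90aa1, Hsph1 and Hspa4 came with no single transcript past the threshold. The nearest were ENSMUST00000021698 of Hsp90aa1 (log2 change 0.36 ± 0.10, adjusted p = 0.0661 by edgeR) and ENSMUST00000074846 of Hsph1 (0.61 ± 0.17, adjusted p = 0.0731). The last held 15.9% to 21.2% of the Hsph1 counts in vehicle and 20.2% to 24.3% in KU55933. Hsp90ab1, Hspa4 and Hspb1 each drew at least 91.1% of their counts from 1 transcript in every library.

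Levels were compared between genes per length, as TPM, in which each transcript's counts are divided by its length. In vehicle the order was Hspa8 at 1919.8 ± 292, Hsp90ab1 at 1636 ± 138, Hsp90aa1 at 878 ± 76.5, Hsph1 at 239.8 ± 27.6, Hspa4 at 132 ± 9.36, Hsf1 at 52.3 ± 7.64, Dnajb1 at 34.4 ± 10.2, Hspb1 at 16.9 ± 1.90, Hspa1b at 14.0 ± 3.25 and Hspa1a at 10.2 ± 2.92 (SD, n = 4). The constitutive genes Hspa8 and Hsp90ab1 together with Hsp90aa1 thus led the set, with shares of 38.9%, 33.2% and 17.8% of its summed level, while Hspa1b and Hspa1a made up 0.283% and 0.208%. Library ranges overlapped between the neighbours Hspa8 and Hsp90ab1, Hsf1 and Dnajb1, Hspb1 and Hspa1b, and Hspa1b and Hspa1a, and not between the other neighbours. Within every single vehicle library, however, Hspa8 was above Hsp90ab1 and Hspa1b above Hspa1a. In KU55933 the ranges of Hspa8 (2360.0 to 2585) and Hsp90ab1 (1704 to 1916) did not overlap, and Dnajb1, at 44.0 ± 3.60, stood beside Hsf1 at 42.4 ± 7.26 with overlapping ranges.

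Ratios of counts within a library need no scaling between libraries, and 5 pairs were compared. The ratio of the inducible Hspa1a plus Hspa1b to the constitutive Hspa8 was 0.0150, 0.0100, 0.0186 and 0.0202 in vehicle 1 to 4 and 0.00528, 0.00490, 0.00767 and 0.00471 in KU55933 1 to 4. All KU55933 ratios were lower, with a difference of -1.48 on the log2 scale (exact two-sided permutation test, p = 0.0286, adjusted p = 0.0714 over the 5 ratios). The ratio of the inducible Hsp90aa1 to the constitutive Hsp90ab1 was 0.627, 0.601, 0.634 and 0.622 in vehicle 1 to 4 and 0.761, 0.740, 0.689 and 0.715 in KU55933 1 to 4. All KU55933 ratios were higher, with a difference of 0.23 (exact permutation p = 0.0286, adjusted p = 0.0714). The paired genes differ in GC content, and with the offset the difference was -0.95 for the HSP70 pair (exact permutation test, adjusted p = 0.143) and 0.05 for the HSP90 pair (adjusted p = 0.333). A p of 0.0286 is the smallest that 4 against 4 libraries can give, and neither ratio passed the adjustment. The ratios of Dnajb1 to Hspa8 (difference 0.00, exact permutation p = 1, adjusted p = 1) and of Hsph1 to Hspa4 (0.08, exact permutation p = 0.257, adjusted p = 0.429) overlapped between groups, as did that of Hspa1a to Hspa1b (-0.03, exact permutation p = 0.657, adjusted p = 0.821).

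Of the other chaperone genes, 89 on the lists used were found and 88 tested, and edgeR called 16 lower (18.2%) and 18 higher (20.5%), beside 14.6% and 6.92% of all genes tested, with a median log2 change of 0.12. The counts for each list below stand against the same shares of all genes. Of the other HSP70 family, 2 of 10 were lower and 3 higher. Hspa2, abundant in testis and present in brain, went down from 68.7 ± 5.04 to 49.5 ± 3.00 CPM (SD, n = 4 per group; log2 change -0.47, adjusted p = 0.00234), and Hspa4l, a relative of Hspa4, rose (0.44, adjusted p = 0.00849). Of the 23 J-domain genes, 1 was lower (Dnajb12, of the endoplasmic reticulum membrane, -0.39) and 5 were higher, among them Dnaja1 and Dnajb4, cytosolic partners of HSP70 (0.38 each). Of 5 small heat shock genes tested, Hspb2 and Hspb3 were lower, both with means under 0.4 CPM, and none was higher. The 17 HSP90 paralogs and co-chaperones split into 5 lower and 6 higher. Cdc37, which brings kinases to HSP90, went down from 114 ± 4.85 to 79.3 ± 8.22 CPM (SD, n = 4 per group; -0.53, adjusted p = 0.00199), whereas Chordc1, another HSP90 partner, rose (0.47, adjusted p = 0.0120). Of 10 exchange factors and partners of HSP70, 4 were lower and none higher. These were Hspbp1 (-1.01, adjusted p = 0.000994), Bag6 (-0.61), Stub1, a ubiquitin ligase (-0.43), and Sil1 (-0.35). Of 16 chaperonin and prefoldin genes, none was lower and 4 were higher, including mitochondrial Hspd1 (0.32, adjusted p = 0.0188). Of the 3 genes for other heat shock factors and their binding protein, Hsf4 was lower (-0.85, adjusted p = 0.00445). Of 17 other heat-induced HSF1 targets, some of them also on the lists above, 1 was lower and 7 higher. All adjusted p here are from edgeR. With the offset, beside 1.29% of all genes lower and 0.672% higher, 2 of the 88 stayed called lower, Hspa2 (-0.37, adjusted p = 0.0471 by edgeR) and Cdc37 (-0.30, 0.0430), and 1 was newly called higher. This was Pfdn5 (0.37, 0.0468, against an adjusted p of 0.0747 without the offset), which was picked out after its value was seen. The sign turned for Hsf4, Stub1 and Nudc. Without vehicle 2, 3 or 4, 6 of the 88 were called higher, and Dnaja1 and Hspd1 missed the threshold (adjusted p by edgeR up to 0.0691 and 0.0683). Hspb2 missed it without those or KU55933 1, 3 or 4 (up to 0.0850), Sil1 without vehicle 2 or 3 or KU55933 2 or 3 (up to 0.0849), and Stub1 without vehicle 3 (0.0577).

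Among the genes whose pattern over the 8 libraries was most like that of Hspa8 were Stip1 and Calr, with root mean square differences of 0.0332 and 0.0422 in centred log2 CPM. For Hsf1 they were Trafd1, Dus1l and Fbf1, with 0.0422, 0.0528 and 0.0534.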

How the data were processed

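The samples were 8 poly(A)-selected stranded mRNA libraries of mouse hippocampus, 4 per group, grouped by the labels. The authors deposited whole-number estimated counts for each transcript (expected counts), made with Salmon 1.4.0 on GRCm39, with FastQC 0.11.9 and DESeq2 1.32.0 also listed, per the submitters' processing notes. Rounding and filters are not given in the sources used here. In all, 74764 transcripts were listed, and 12 rows without a gene name were kept. Depth was 34190440 to 46630341 counts per library.

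Counts were summed per gene and tested with edgeR 4.0.16 (R 4.3.3; filterByExpr, TMM, robust quasi-likelihood, 2-sided). CPM are counts over the TMM-scaled library size, with a prior count of 2 on the log2 scale. The offset was a spline per library on GC content (6 degrees of freedom) and length (5), from GENCODE mouse 21 transcripts, which matched 99.7% of those listed. These are on GRCm38, and no coordinate was converted. Per-length levels divided each transcript's counts by its length. The 5 ratios used exact permutation over 70 arrangements. The code was tested on simulated data.

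Alternatives were scaling by RLE or by upper quartile, testing without a filter or with one of 1 CPM in at least 4 libraries, dispersion without the robust option, a replicate block, the offset, protein-coding transcripts only, Hspa1a and Hspa1b added, an adjusted p of 0.1, DESeq2 1.42.0, limma-voom (limma 3.58.1), and each library left out. Chosen after seeing the data were leaving out 2 libraries together, the offset with the block or with a library left out, and the offset per transcript. No 2 libraries agreed within sampling noise. Named were the 10 chaperone genes, up to 4 called genes with the smallest p per other list, and the 3 genes most like Hspa8 and Hsf1; 1 gene that met this rule is not reported here. The genes and lists were chosen with earlier results of these data known.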

Additional observations from a re-analysis of the deposited data

Results flagged for a closer look

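The Dnajb1 level of vehicle 1, 61.8 CPM, stood apart from the other 3 vehicle libraries. Its gap to the nearest of them took 0.943 of the range of the group, above the 95% critical value of Dixon's test for 4 libraries. Of 20 groups tested, 1 was picked out, and chance picks out about 1 in 20.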

How the results depend on the processing

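Of the 10 heat shock chaperone genes, 2 were called lower and 4 higher. With the GC and length offset, and with that offset and the replicate block, 0 were called in either direction, and likewise with KU55933 1 and 2 both left out. With Hspa1a and Hspa1b added, 1 was called lower. With single libraries left out, 2 to 3 were called lower and 0 to 5 higher, or with the offset 0 lower and 0 to 2 higher. The 2 were Dnajb1 and Hspa8, without vehicle 1. Over all genes, the offset called 200 lower and 104 higher, and the offset with the block 444 and 346. Without KU55933 1 and 2, 985 of 15780 genes were called lower and 105 higher. Without vehicle 1 and 2 these were 1689 and 581 of 15721. Single libraries left out gave 1446 to 2558 genes lower and 151 to 1790 higher. With the offset these were 54 to 385 lower and 24 to 327 higher. With the offset Hspb1 turned to a log2 change of 0.41 (0.42 with the block) and Hsf1 to 0.06 (0.06 with the block). With the offset and vehicle 1, 2, 3, 4 or KU55933 1, 2, 3, 4 left out, Hspb1 was at 0.55, 0.41, 0.35, 0.33, 0.40, 0.52, 0.31 and 0.41, and Hsf1 at 0.01, 0.06, 0.04, 0.12, 0.11, 0.03, 0.05 and 0.04. Hspa8 also missed the threshold with no filter (adjusted p = 0.0608 by edgeR) and with non-robust dispersion (0.0508). Of the other chaperone genes 2 were called lower and 1 higher with the offset, the latter not called without it, and the offset turned Hsf4 to 0.02, Nudc to 0.07 and Stub1 to 0.20. With libraries left out 11 to 16 of them were lower and 6 to 26 higher. Of the transcripts, 1 was lower with RLE scaling and 0 with the offset, and with libraries left out 0 to 3 were lower and 0 to 2 higher. With the offset the ratio of Hsp90aa1 to Hsp90ab1 went from 0.23 to 0.05 and that of Hspa1a plus Hspa1b to Hspa8 from -1.48 to -0.95. The ratio of Dnajb1 to Hspa8 ranged from -0.06 to 0.09 and that of Hspa1a to Hspa1b from -0.09 to 0.02 with libraries left out, and the latter was 0.06 with the offset. The cause of these moves was not tested.

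The labels do not say whether replicate numbers pair the samples. Libraries of the same number had correlations of their deviations of 0.294, 0.0840, 0.0393 and 0.202. Those of libraries with different numbers ran from -0.221 to 0.115. Not every library correlated best with its own number, so these values do not settle whether the numbers mark pairs. With the replicate block, Hsf1 was also called (adjusted p = 0.00733 by edgeR), and 0 of the transcripts were called higher. Over all genes, 3338 passed with TMM scaling and 304 with the offset. Low counts limit Hspa1a, with 145 to 639 estimated counts per library, and Hspb1, with 112 to 335.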
